A study of Mus musculus with 9 samples.

Results

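Annexins are cytosolic proteins that bind phospholipids at the inner face of membranes when calcium rises. They take part in exocytosis, endocytosis, the link between membranes and actin, and the resealing of damaged plasma membrane. Annexin A2 works as a complex with the S100 protein S100a10, and annexin A1 binds S100a11 and, once outside the cell, formyl peptide receptors.

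The mRNAs of 8 annexin genes, Anxa1 to Anxa7 and Anxa11, were followed in mouse ES cells, the cultured stem cells of the early embryo. They were measured on 9 Affymetrix mouse gene arrays, 3 each for Dgcr8 KO, Dicer KO and wild-type (WT) cells. Members were the rows of the deposited table that the platform annotation assigns to these genes, 9 transcript clusters (probe groups, each read as 1 transcript) of 22980 counted in all, since Anxa6 has 2 clusters. Dgcr8 KO cells lack the RNA-binding partner of Drosha, which releases miRNA hairpins, and Dicer KO cells lack the enzyme that cuts those hairpins, so both lack most mature miRNAs. The WT cells were of the v6.5 line, and how far the knockout lines share its origin is not given in the sources used here, so differences between the lines and effects of the knockouts cannot be told apart. The family was chosen by the measured log2 levels of Anxa1 and Anxa2, which differ between the mutants, so the contrast of Dgcr8 KO with Dicer KO is given as a description, with no test. The contrasts with WT were tested, and for Anxa1 and Anxa2 these use the same mutant arrays that led to the choice.

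Dgcr8 had log2 levels of 8.74, 8.96 and 8.86 on the Dgcr8 KO arrays, 9.98, 9.99 and 9.99 on the Dicer KO arrays and 9.76, 9.81 and 9.82 on the WT arrays. Dicer1 had 10.40, 10.47 and 10.39 on the Dgcr8 KO arrays, 8.33, 8.43 and 8.32 on the Dicer KO arrays and 10.18, 10.18 and 10.23 on the WT arrays, so the gene named by each label was lowest in that mutant. Probes of these arrays lie along the whole transcript, and any outside the deleted part would not show the deletion itself. All 8 ES cell markers examined, among them Pou5f1, Sox2 and Nanog, had genotype means of 9.03 or more. This scale runs from 1.63 to 14.99. Their levels were not alike, since each mutant had 6 of these markers called higher than WT by limma and 1, Utf1, called lower. Nanog, the marker that rose most, averaged 11.49 on WT arrays, 12.26 on Dgcr8 KO arrays and 12.59 on Dicer KO arrays. Among the deviations of arrays from their genotype mean, WT replicate 1 and Dgcr8 KO replicate 2 stood at opposite ends of the leading component, and the counts without both are given below. The paper speaks of biological replicates and the labels of plates in triplicate, so p-values may measure only the technical spread between cultures. RNA came from whole cultures, in which fewer cells of a type and less RNA per cell cannot be told apart.

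Since the results turn on Anxa1 and Anxa2, the 100 bases just upstream of their RefSeq start sites are shown (GRCm38.p6, 5′ to 3′). Anxa1 is at chr19:20373434-20390671 and Anxa2 at chr9:69453683-69491792, and the stretches are chr19:20390672-20390771 (minus strand) and chr9:69453583-69453682 (plus strand). Capitals mark TATAAA, the TATA box letters, and TGANTCA, the letters bound by AP-1 factors.
Anxa1: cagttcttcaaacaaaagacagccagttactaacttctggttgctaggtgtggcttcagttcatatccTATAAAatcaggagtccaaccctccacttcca
Anxa2: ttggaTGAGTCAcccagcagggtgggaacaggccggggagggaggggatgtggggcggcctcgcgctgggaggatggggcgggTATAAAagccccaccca

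Windows from 250 bases before to 50 after a start were searched on both strands, and 6 of the 8 members had at least 1 window. TATAAA was found in Anxa1, 32 to 27 bases upstream of the start, and in Anxa2, 17 to 12 bases upstream, and in none of the windows of Anxa4, Anxa5, Anxa7 and Anxa11. It was in 13.6% of all 32851 windows. TGANTCA was in the Anxa2 window alone among these 6 genes, 95 to 89 bases upstream of the start, and in 7.8% of all windows. GGGCGG, the letters of the GC box, was found in Anxa2, Anxa4, Anxa7 and Anxa11 and in 35.7% of all windows. These motifs do not overlap each other. They are matches of letters only, and no binding was measured.

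Anxa1 was high in Dicer KO cells alone. Annexin A1 is a substrate of growth factor receptor kinases and an inhibitor of inflammation, known for its control by glucocorticoids. Its log2 level was 8.68, 8.87 and 8.74 on the Dgcr8 KO arrays, 10.82, 10.90 and 10.80 on the Dicer KO arrays and 8.43, 8.74 and 8.71 on the WT arrays. The 3 Dicer KO arrays lay far above the other 6, and those of Dgcr8 KO and WT overlapped. The Dicer KO level of Anxa1 was 4.63-fold that of WT, at a log2 ratio of 2.21 (standard error, SE, 0.0871, adjusted p = 9.56e-08) by limma. Its log2 ratio to WT in Dgcr8 KO was 0.14 (95% interval -0.06 to 0.34, adjusted p = 0.285). The difference of Dgcr8 KO minus Dicer KO, which led to its choice, was -2.07 on the log2 scale.

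Anxa2 was high in both mutants. Annexin A2 binds actin and, on the cell surface, plasminogen and its activator. Its log2 level was 9.20, 9.21 and 9.20 on the Dgcr8 KO arrays, 9.68, 9.64 and 9.52 on the Dicer KO arrays and 7.92, 7.99 and 7.94 on the WT arrays. No genotype overlapped with another, and the step from WT to either mutant was larger than the step between the mutants. The Dgcr8 KO level of Anxa2 was 2.39-fold that of WT, at a log2 ratio of 1.25 (SE 0.0521, adjusted p = 2.28e-07). The Dicer KO level was 3.16-fold that of WT, at a log2 ratio of 1.66 (SE 0.0521, adjusted p = 2.85e-08). The log2 difference of Dgcr8 KO minus Dicer KO was -0.40. The Anxa2 values of Dgcr8 KO are unusually close (SD 0.00569, n = 3), against SDs of 0.0841 in Dicer KO and 0.0319 in WT (n = 3 each). In the table, 381 counted transcripts have the same deposited value on all 3 Dgcr8 KO arrays, as do 469 in Dicer KO and 312 in WT.

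**Figure D1:**
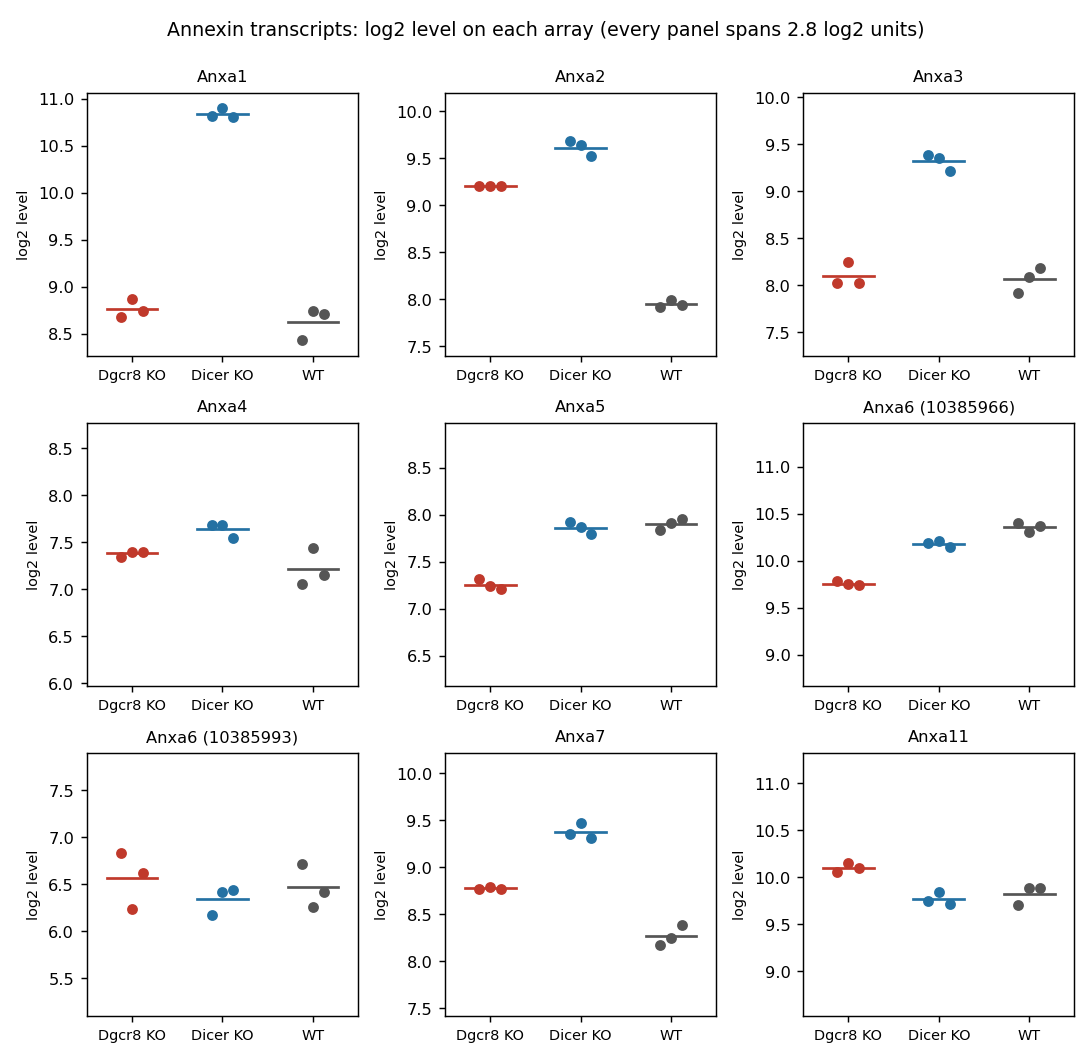
Log2 level (vertical axis, normalized by the authors) of the 9 annexin transcript clusters on each array, with 3 points and a line for their mean in Dgcr8 KO, Dicer KO and WT cells; every panel spans the same range of log2 units. Anxa1 and Anxa3 stand high on the Dicer KO arrays alone, Anxa2 and Anxa7 form 3 steps, and Anxa5 and the main Anxa6 cluster are lowest on the Dgcr8 KO arrays.

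Anxa3 followed the pattern of Anxa1. Annexin A3 (chr5:96793385-96845968) is abundant in neutrophils and is known as an inhibitor of phospholipase A2. Its log2 level was 8.02, 8.25 and 8.02 on the Dgcr8 KO arrays, 9.38, 9.35 and 9.22 on the Dicer KO arrays and 7.92, 8.09 and 8.18 on the WT arrays. Dicer KO lay apart from both other genotypes, which overlapped. Anxa3 rose 2.38-fold in Dicer KO over WT, with a ratio of 1.25 in log2 units (SE 0.0877, adjusted p = 3.69e-06). In Dgcr8 KO its log2 ratio to WT was 0.03 (95% interval -0.17 to 0.23, adjusted p = 0.847), and the log2 difference of Dgcr8 KO minus Dicer KO was -1.22.

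Anxa7 was high in both mutants and, as for Anxa2, highest in Dicer KO. Annexin A7 (chr14:20455261-20480133), or synexin, is known for driving the fusion of chromaffin granules. Its log2 level was 8.77, 8.79 and 8.77 on the Dgcr8 KO arrays, 9.36, 9.47 and 9.31 on the Dicer KO arrays and 8.17, 8.25 and 8.39 on the WT arrays, with no overlap between genotypes. It rose 1.42-fold in Dgcr8 KO, or by 0.51 in log2 units over WT (SE 0.0657, adjusted p = 0.000242). It rose 2.15-fold in Dicer KO, or by 1.11 in log2 units (SE 0.0657, adjusted p = 1.22e-06). The log2 difference of Dgcr8 KO minus Dicer KO was -0.60, beside -0.40 for Anxa2.

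Anxa4 rose in Dicer KO by a smaller amount, 1.34-fold, and lost that call when at least 1.5-fold was required. Annexin A4 (chr6:86736840-86793634) is an epithelial annexin that binds the apical membrane and secretory granules. Anxa4 had log2 levels of 7.35, 7.40 and 7.40 on the Dgcr8 KO arrays, 7.69, 7.69 and 7.55 on the Dicer KO arrays and 7.06, 7.44 and 7.15 on the WT arrays. The Dicer KO arrays lay above all others, and WT replicate 2 lay above the 3 Dgcr8 KO arrays. The log2 ratio to WT was 0.43 in Dicer KO (SE 0.0926, adjusted p = 0.00514) and 0.17 in Dgcr8 KO (SE 0.0926, adjusted p = 0.218). Without WT replicate 2 the Anxa4 ratio in Dgcr8 KO was 0.28 and passed the test (adjusted p = 0.0106, the alternatives spanning 0.0106 to 0.59).

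Anxa5 and Anxa6 were low in Dgcr8 KO. Annexin A5 (chr3:36448923-36475887) binds phosphatidylserine tightly and is used to stain dying cells. Anxa5 had log2 levels of 7.32, 7.24 and 7.21 on the Dgcr8 KO arrays, 7.92, 7.87 and 7.79 on the Dicer KO arrays and 7.84, 7.91 and 7.95 on the WT arrays. The Dgcr8 KO arrays lay below the other 6, which overlapped. Anxa5 fell in Dgcr8 KO, with a ratio to WT of -0.64 in log2 units (SE 0.0551, adjusted p = 1.7e-05), and had a ratio of -0.04 in Dicer KO (95% interval -0.16 to 0.09, adjusted p = 0.624).

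Annexin A6 (chr11:54978953-55033471) is a double-length annexin of endosomes and cholesterol-rich membranes. The main Anxa6 cluster, which carries the RefSeq transcripts, had log2 levels of 9.78, 9.75 and 9.74 on the Dgcr8 KO arrays, 10.19, 10.21 and 10.15 on the Dicer KO arrays and 10.40, 10.31 and 10.37 on the WT arrays. The genotypes did not overlap, and WT was highest. Anxa6 fell in Dgcr8 KO, with a ratio to WT of -0.61 in log2 units (SE 0.0441, adjusted p = 6.21e-06). In Dicer KO the ratio was -0.18 (SE 0.0441, adjusted p = 0.0103), and after median centring of every array it was -0.13 and no longer passed (adjusted p = 0.0622, the alternatives spanning 0.00166 to 0.0622). A second Anxa6 cluster, annotated with a single cDNA, ranged from 6.24 to 6.83 on the Dgcr8 KO arrays, 6.17 to 6.44 on the Dicer KO arrays and 6.26 to 6.72 on the WT arrays. All 3 genotypes overlapped there, with log2 ratios to WT of 0.09 in Dgcr8 KO (adjusted p = 0.73) and -0.12 in Dicer KO (adjusted p = 0.582). The difference between the clusters was not tested.

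Anxa11 was high in Dgcr8 KO cells alone. Annexin A11 (chr14:25842127-25886804) has a long disordered tail and tethers RNA granules to lysosomes. Anxa11 had log2 levels of 10.06, 10.15 and 10.10 on the Dgcr8 KO arrays, 9.75, 9.84 and 9.72 on the Dicer KO arrays and 9.70, 9.88 and 9.88 on the WT arrays. The Dgcr8 KO arrays lay above all others, and Dicer KO overlapped with WT. The log2 ratio to WT was 0.28 in Dgcr8 KO (SE 0.0636, adjusted p = 0.00684) and -0.05 in Dicer KO (SE 0.0636, adjusted p = 0.563). By SAM, the test named in the paper's methods, Anxa11 was not called in Dgcr8 KO. SAM was rewritten here from its published description and may differ from the package the paper used. It adds a constant to the spread of each transcript, 0.741 for Dgcr8 KO against WT, beside an SE of 0.0636 for Anxa11. Its calls in that comparison thus rest largely on the size of the ratio.

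Set against WT, 3 of the 9 annexin clusters were called higher in Dgcr8 KO and 2 were called lower, at an adjusted p under 0.05. Over all 22980 transcripts 15.7% were called higher and 17.3% lower in that comparison. In Dicer KO 5 were called higher and 1 lower than in WT, against 17.8% higher and 19.1% lower over all transcripts. That balance over all transcripts turned with the scaling, to 4476 higher and 3325 lower in Dicer KO with arrays centred on their medians and 4738 higher and 3797 lower with cyclic loess, which also gave 4349 higher and 3659 lower in Dgcr8 KO. The annexin counts were the same under both, apart from 0 lower in Dicer KO after centring. Across the members the log2 ratio to WT had a median of 0.14 in Dgcr8 KO and a median of 0.43 in Dicer KO (0.15 in Dgcr8 KO and 0.77 in Dicer KO over the 8 genes, with the Anxa6 clusters averaged), and over all transcripts the medians were -0.01 in Dgcr8 KO and -0.06 in Dicer KO. Anxa2 and Anxa7 were called higher in both mutants and Anxa6 lower in both. Anxa1, Anxa3 and Anxa4 were called in Dicer KO alone, and Anxa5 and Anxa11 in Dgcr8 KO alone. These comparisons share the WT arrays. The counts and medians include Anxa1 and Anxa2, by whose values the family was chosen, so they describe the family and do not test it. In the contrast of Dgcr8 KO with Dicer KO, the arrays of the mutants did not overlap in 8 clusters, 7 of them lower and 1, Anxa11, higher in Dgcr8 KO. That was so for 42.0% of all transcripts, and the family was chosen by this contrast. When WT replicate 1 was dropped together with Dgcr8 KO replicate 2, a choice made after seeing the values, 4 were called higher and 2 lower in Dgcr8 KO, with the second Anxa6 cluster added at a log2 ratio of 0.38 (adjusted p = 0.0413), and 5 and 1 in Dicer KO.

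**Figure D2:**
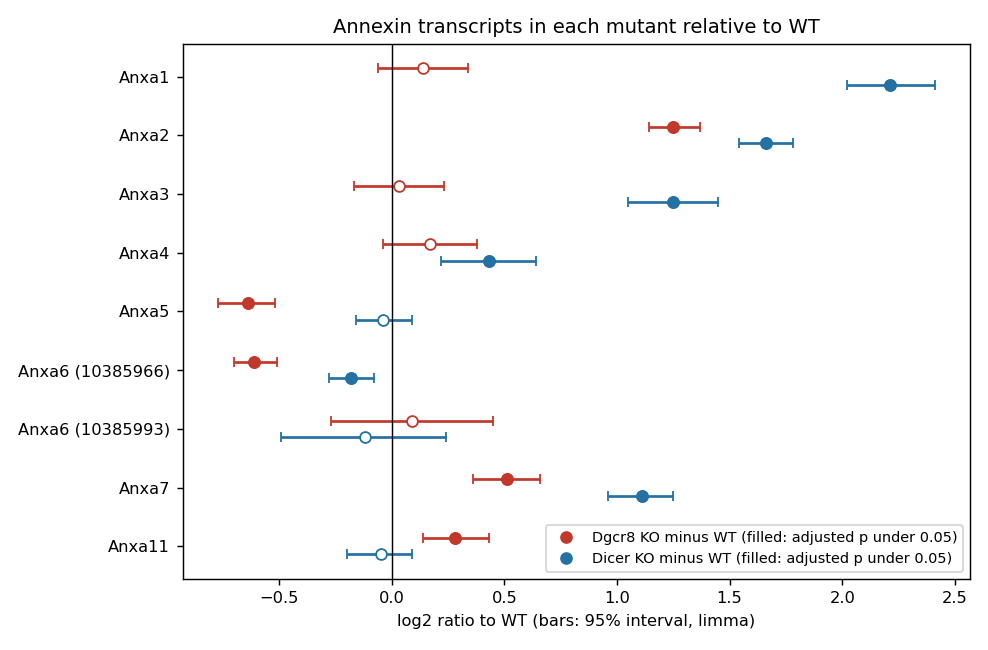
Log2 ratio to WT (horizontal axis) of each annexin cluster in either mutant, Dgcr8 KO or Dicer KO, with 95% intervals from limma; filled points have an adjusted p under 0.05. Anxa1 is at 0.14 in Dgcr8 KO but at 2.21 in Dicer KO, and Anxa5 is at -0.64 in Dgcr8 KO and -0.04 in Dicer KO.

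The other 4 mouse annexins are made in narrower sets of tissues. Anxa9, an annexin of epithelia with altered calcium-binding sites, was at 7.04, 7.08 and 6.87 in Dgcr8 KO cells, 6.93, 7.09 and 7.16 in Dicer KO cells and 6.55, 6.24 and 6.56 in WT cells on the log2 scale. It rose in both mutants, at log2 ratios to WT of 0.55 in Dgcr8 KO (adjusted p = 0.00219) and 0.61 in Dicer KO (adjusted p = 0.000995). Anxa8, an annexin of stratified epithelia, was at 5.69, 5.54 and 5.79 in Dgcr8 KO cells, 5.77, 5.69 and 5.61 in Dicer KO cells and 6.12, 6.10 and 6.07 in WT cells. It fell in both, at -0.42 (adjusted p = 0.00112) in Dgcr8 KO and -0.41 (adjusted p = 0.00126) in Dicer KO. Its levels lay below the array medians, which ran from 6.49 to 6.56. Neither Anxa10 nor Anxa13 passed the test in either mutant, with log2 ratios to WT between -0.25 and 0.02.

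The mRNAs of the S100 proteins that bind annexins were mostly higher in Dicer KO. Of the 5 clusters of 4 S100 genes (S100a4, S100a6, S100a10 and S100a11), 3 were called higher and 1 was called lower in Dgcr8 KO, and 4 were called higher and 0 lower in Dicer KO. With the S100a11 clusters averaged, the 4 genes had a median log2 ratio of 0.37 in Dgcr8 KO against WT and of 1.25 in Dicer KO against WT, and over the 5 clusters the medians were 0.73 for Dgcr8 KO and 1.45 for Dicer KO. S100a10, the p11 subunit of the annexin A2 complex, was at 10.54, 10.56 and 10.54 in Dgcr8 KO cells, 11.83, 11.85 and 11.78 in Dicer KO cells and 10.72, 10.81 and 10.81 in WT cells. It lay on opposite sides of WT in the mutants, with no overlap of genotypes. Its log2 ratio to WT was -0.23 in Dgcr8 KO (SE 0.0459, adjusted p = 0.00313), a call not made by SAM, and 1.04 in Dicer KO (SE 0.0459, adjusted p = 1.97e-07). In Dgcr8 KO the mRNAs of the subunits of this complex thus had ratios of opposite sign, 1.25 for Anxa2 and -0.23 for S100a10. The proteins were not measured.

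S100a6, or calcyclin, which binds several annexins, was at 9.34 on all 3 Dgcr8 KO arrays, 11.20, 11.16 and 11.19 in Dicer KO and 8.30, 8.66 and 8.79 in WT. Its 3 Dgcr8 KO values are the same in every deposited digit. The log2 ratio to WT was 0.76 in Dgcr8 KO (adjusted p = 0.000363) and 2.60 in Dicer KO (adjusted p = 1.13e-07). S100a11, the partner of annexin A1, has 2 clusters annotated with the same accessions, whose signals cannot be assigned to separate copies. One of them was at 10.87, 10.93 and 10.92 in Dgcr8 KO cells, 11.59, 11.66 and 11.66 in Dicer KO cells and 10.03, 10.30 and 10.19 in WT cells. Both rose in both mutants, with log2 ratios of 0.73 and 0.80 for Dgcr8 KO against WT, and of 1.46 and 1.45 for Dicer KO against WT. S100a4 did not pass in either mutant (adjusted p = 0.857 in Dgcr8 KO and 0.953 in Dicer KO).

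**Figure D3:**
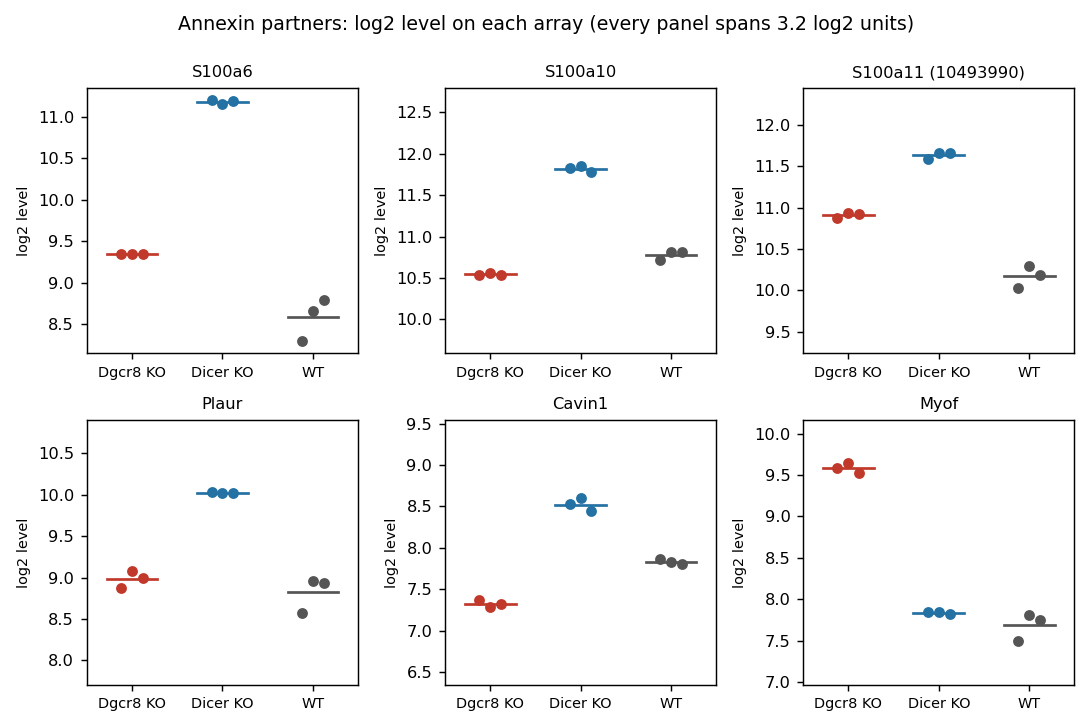
Log2 level (vertical axis) of 6 annexin partners on each array, with 3 points and a line for their mean in Dgcr8 KO, Dicer KO and WT cells; every panel spans the same range. S100a10 and Cavin1 lie below WT in Dgcr8 KO and above it in Dicer KO, and Myof stands high in Dgcr8 KO alone, with values from 9.52 to 9.64.

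Of 7 formyl peptide receptor genes listed, 4 were matched to a cluster, all of them Fpr-rs genes of the mouse family. The other 3, which include the best-known receptors of annexin A1, were not analysed here. The 4 Fpr-rs clusters had genotype means between 2.78 and 5.83. Of them 0 were called in either mutant by limma or by SAM, with 1 in each mutant at an unadjusted p under 0.05. Without WT replicate 1, Fpr-rs4 passed in Dgcr8 KO at a log2 ratio to WT of 0.42 (adjusted p = 0.0314), as it did without Dgcr8 KO replicate 2, at 0.41 (adjusted p = 0.0419). Fpr-rs6 passed in both mutants without WT replicate 1, at 0.22 in Dgcr8 KO (adjusted p = 0.018) and 0.21 in Dicer KO (adjusted p = 0.0197).

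Annexin A2 gathers plasminogen and its activators at the cell surface. Of 5 genes of plasminogen activation measured, 0 were called higher and 1 lower in Dgcr8 KO, and 2 higher and 1 lower in Dicer KO. Plaur, the receptor of the activator urokinase, was at 8.87, 9.08 and 8.99 in Dgcr8 KO cells, 10.04, 10.02 and 10.02 in Dicer KO cells and 8.57, 8.96 and 8.94 in WT cells, so that Dicer KO alone stood apart, as for Anxa1. Its log2 ratio to WT was 0.16 in Dgcr8 KO (adjusted p = 0.3) and 1.20 in Dicer KO (adjusted p = 1.26e-05). Plgrkt, a plasminogen receptor, rose by 0.72 in Dicer KO (adjusted p = 0.000922). Plau, urokinase itself, fell in both, at -0.52 in Dgcr8 KO (adjusted p = 0.000379) and -0.54 in Dicer KO (adjusted p = 0.000242). Its means were 5.24 in Dgcr8 KO, 5.22 in Dicer KO and 5.76 in WT, below the array medians of 6.49 to 6.56.

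Of 9 genes of membrane repair, 5 were called higher and 2 lower in Dgcr8 KO, and 5 higher and 0 lower in Dicer KO. The shares called higher over all transcripts were 15.7% in Dgcr8 KO and 17.8% in Dicer KO. Ahnak and the calpain genes Capn1, Capn2 and Capns1 were higher in both mutants, and Cavin1 alone had calls of opposite sign. Ahnak, a giant scaffold protein that binds the complex of annexin A2 and S100a10, was at 9.03 on all 3 Dgcr8 KO arrays, 9.44, 9.40 and 9.49 in Dicer KO and 8.26, 8.29 and 8.26 in WT. It rose in both, at log2 ratios to WT of 0.76 in Dgcr8 KO (adjusted p = 1.3e-06) and 1.17 in Dicer KO (adjusted p = 6.51e-08), with the order of genotypes seen for Anxa2. Myof, a ferlin of the plasma membrane, was at 9.58, 9.64 and 9.52 in Dgcr8 KO cells, 7.85, 7.84 and 7.82 in Dicer KO cells and 7.49, 7.81 and 7.75 in WT cells, so it stood high in Dgcr8 KO alone, at a log2 ratio to WT of 1.90 (adjusted p = 2.36e-07). Cavin1, a coat protein of caveolae, had ratios of -0.51 in Dgcr8 KO (adjusted p = 6.35e-05) and 0.69 in Dicer KO (adjusted p = 6.61e-06). Dysf, the other gene called lower in Dgcr8 KO, had ratios of -0.52 there (adjusted p = 0.000897) and -0.15 in Dicer KO (adjusted p = 0.184). Capn1, the large subunit of mu-calpain, had ratios of 0.39 in Dgcr8 KO (adjusted p = 0.000748) and 0.59 in Dicer KO (adjusted p = 4.38e-05), and Capns1, the small subunit, of 0.38 in Dgcr8 KO (adjusted p = 9.35e-05) and 0.54 in Dicer KO (adjusted p = 7.39e-06). Capn2, the large subunit of m-calpain, had ratios of 0.21 in Dgcr8 KO (adjusted p = 0.0218) and 1.20 in Dicer KO (adjusted p = 4.38e-07). The call of Capn2 in Dgcr8 KO was lost without Dgcr8 KO replicate 2 (adjusted p = 0.0719) and without Dgcr8 KO replicate 3 (adjusted p = 0.0522), with alternatives spanning 0.00181 to 0.0803.

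Several of the penta-EF-hand proteins and their partners bind the tails of annexins A7 and A11, and the mRNAs of this group were higher in Dicer KO. Of 5 measured, 1 was called higher and 1 lower in Dgcr8 KO, and 5 higher and 0 lower in Dicer KO. Over all transcripts 17.8% were called higher in Dicer KO, and the list was made with earlier results of these data known. Sri, or sorcin, which binds annexin A7, was at 9.03, 9.14 and 9.07 in Dgcr8 KO cells, 9.72, 9.72 and 9.73 in Dicer KO cells and 8.32, 8.42 and 8.49 in WT cells, 3 steps in the order seen for Anxa7. Its log2 ratio to WT was 0.67 in Dgcr8 KO (adjusted p = 1.46e-05) and 1.31 in Dicer KO (adjusted p = 1.54e-07). Gca, or grancalcin, had ratios of opposite sign, -0.45 in Dgcr8 KO (adjusted p = 0.00443) and 0.60 in Dicer KO (adjusted p = 0.000718). Pdcd6ip, the ESCRT partner Alix, rose by 0.27 in Dicer KO (adjusted p = 0.000728). Pdcd6, or ALG-2, rose by 0.19 in Dicer KO (adjusted p = 0.0419), and Pef1, its partner, had a ratio of 0.33 there (adjusted p = 0.0427). Each of these last 2 calls was lost on leaving out any 1 of 7 of the 9 arrays. In Dgcr8 KO, Pdcd6 had a ratio of -0.17 (adjusted p = 0.074) and was called lower without WT replicate 1 (-0.21, adjusted p = 0.0417) or without Dgcr8 KO replicate 2 (-0.22, adjusted p = 0.0303), making 2 lower.

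The transcripts most like Anxa1 over the 9 arrays shared its rise in Dicer KO. They were ranked by Pearson's r with Anxa1 among 1094 transcripts with 1 symbol and a span of at least 1 between genotype means. Predicted genes and symbols that are clone or accession names had been left out of these. The values are a description, since the 9 points fall into 3 genotypes and share their arrays. Niban1, a stress-response protein, came first at r = 0.9991, with genotype means of 8.34 in Dgcr8 KO, 9.59 in Dicer KO and 8.23 in WT. Mtmr1, a phosphoinositide phosphatase (r = 0.9989), Tmsb4x, the actin-binding thymosin beta 4 (r = 0.9949), and Abca1, the cholesterol exporter (r = 0.9944), followed. Anxa3 itself was the fifth, at r = 0.9944, with means of 8.10 in Dgcr8 KO, 9.32 in Dicer KO and 8.07 in WT.

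The transcripts most like Anxa2 were high in both mutants. Zc3hav1, an antiviral RNA-binding protein, came first at r = 0.999, with means of 8.59 in Dgcr8 KO, 9.07 in Dicer KO and 6.91 in WT. Osbpl3, an oxysterol-binding protein (r = 0.9987), Aqp3, a water and glycerol channel (r = 0.9986), Eea1, a tether of early endosomes (r = 0.9983), and Slc37a1, a sugar phosphate exchanger (r = 0.9981), completed the 5. Among the annexins, Anxa7 had an r of 0.936 with Anxa2 and 0.908 with Anxa1, and Anxa5 and the main Anxa6 cluster had an r of 0.959 with each other. The r of Anxa11 was -0.868 with Anxa5 and -0.842 with the main Anxa6 cluster.

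**Figure D4:**
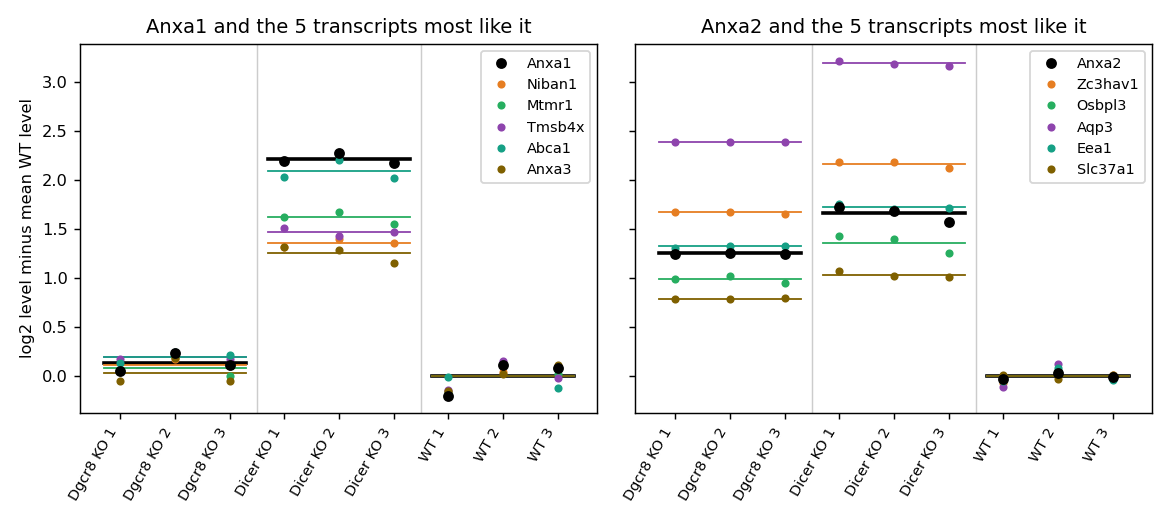
Log2 level minus the mean WT level (vertical axis) of Anxa1 (left) and Anxa2 (right), in black, and of the 5 transcripts most like each, on the 9 arrays in order of genotype; lines are genotype means. The Anxa1 set stands far above WT in Dicer KO and near WT in Dgcr8 KO. The Dgcr8 KO arrays of Abca1 and Tmsb4x lie slightly above those of WT, without overlap. The Anxa2 set is raised in both mutants and most in Dicer KO, where Aqp3 averaged 11.04 against 7.85 in WT.

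Annexins A1 and A2 are abundant in fibroblasts, epithelia and blood cells, so markers of other cell types were read beside them. Of 12 fibroblast markers, 1 was called higher and 0 were called lower in Dgcr8 KO, while Dicer KO had 1 higher and 1 lower. The 1 called higher was Vim, the intermediate filament vimentin, at 12.13, 12.12 and 12.15 in Dgcr8 KO, 11.45 on all 3 arrays in Dicer KO and 9.73, 9.86 and 9.89 in WT. The collagens Col1a1, Col1a2 and Col3a1 had genotype means between 6.52 and 7.28, and Dcn, the 1 called lower, had a log2 ratio to WT of -0.26 in Dicer KO. The mean log2 level of the 12 ranged from 6.49 to 6.65 over the Dgcr8 KO arrays, 6.43 to 6.5 over the Dicer KO arrays and 6.34 to 6.5 over the WT arrays.

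Of 5 blood cell markers, 1 was called higher and 0 lower in each mutant. It was Cd68, a lysosomal membrane protein, at 9.46, 9.60 and 9.49 in Dgcr8 KO cells, 10.12, 10.12 and 10.18 in Dicer KO cells and 8.37, 8.64 and 8.61 in WT cells, the order of genotypes of Anxa2. The mean of the 5 ranged from 6.19 to 6.24 over the Dgcr8 KO arrays, 6.23 to 6.37 over the Dicer KO arrays and 6.01 to 6.10 over the WT arrays, while Ptprc, Csf1r, Aif1 and Tyrobp did not pass in either mutant. Of 8 trophoblast markers, 0 were called higher and 3 lower in Dgcr8 KO, and 2 higher and 2 lower in Dicer KO. The epithelial keratins Krt8 and Krt18 fell in both, with log2 ratios of -1.42 (Krt8) and -2.0 (Krt18) for Dgcr8 KO against WT and of -0.45 (Krt8) and -0.52 (Krt18) for Dicer KO against WT. Elf5 and Gata3 rose in Dicer KO, Elf5 by 0.41 and Gata3 by 0.44 in log2 units. The mean of the 8 ranged from 7.18 to 7.26 over the Dgcr8 KO arrays, 7.63 to 7.71 over the Dicer KO arrays and 7.67 to 7.72 over the WT arrays. Of 10 primitive endoderm clusters, 1 was higher and 1 lower in Dgcr8 KO and 1 higher and 2 lower in Dicer KO, with a mean level of 6.23 to 6.39 over the Dgcr8 KO arrays, 6.18 to 6.22 over the Dicer KO arrays and 6.36 to 6.46 over the WT arrays. The part of any of these cell types in the annexin values was not tested.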

How the data were processed

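The authors hybridised RNA of 9 cultures, 3 per genotype, to Affymetrix mouse Gene ST arrays and deposited normalized log2 intensities, 1 per transcript cluster and array. The paper names RMA and the submitters' processing notes name GCRMA, with no version in the sources used here. The values were used as deposited. The number of arrays limits the precision.

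Of 35557 clusters, 23410 have a symbol in the platform annotation (21789 with 1, 1621 with several). After 326 clusters of miRNA genes, 7 mitochondrial and 97 Y-linked clusters were left out, 22980 were counted. Positions came from RefSeq (GRCm38.p6), matched by gene ID for all 8 members.

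Genotype means were fitted to all 9 arrays with limma 3.58.1 in R 4.3.3, and each mutant was compared with WT by eBayes, with Benjamini-Hochberg adjustment over the 22980. A call is an adjusted p under 0.05. All members were named, with the called partners of smallest adjusted p (up to 4 per list), S100a10 and S100a11. The cell type markers, Pef1, Capn1, Capns1, Dysf and the partners that were not called were named after their values were seen. Members and lists were chosen with earlier results of these data known. The script was tested on simulated data. In all, 21 alternatives were planned and 1 was added.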

Additional observations from a re-analysis of the deposited data

How the results depend on the processing

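Of the 18 log2 ratios of annexin clusters to WT, 11 were called. Under 22 alternatives 0 of the called ratios changed sign, 7 kept their call throughout, 4 lost it under at least 1 alternative and 2 uncalled ratios gained a call. With at least 1.5-fold required, 1 cluster stayed higher in Dgcr8 KO, because the ratios of Anxa7 and Anxa11 there are smaller than that. For Dicer KO this minimum left 4 clusters called higher instead of 5, as Anxa4 rose only 1.34-fold. It left 0 called lower, as the ratio of the main Anxa6 cluster is also too small. The 1 cluster lower in Dicer KO, the main Anxa6 cluster, was likewise not called by SAM, with each array centred on its median or at an adjusted p under 0.01, which left 0. Leaving out 1 array at a time gave 3 to 4 higher in Dgcr8 KO and left 2 lower there, with 5 higher and 1 lower in Dicer KO each time. With the replicate number as a block, 3 were higher and 2 lower in Dgcr8 KO, while Dicer KO had 5 higher and 1 lower. Over all transcripts this replicate block called 3613 higher and 3923 lower in Dgcr8 KO, while Dicer KO had 4085 higher and 4459 lower. Among the other annexins and the partner genes (cell type markers were not run), it ended the call of Pdcd6 in Dicer KO (adjusted p = 0.0595). Arrays of different genotypes with the same number had correlations of -0.199 to 0.344 in their deviations. Those with different numbers had -0.465 to 0.317. With 3 arrays per genotype these ranges cannot settle whether the numbers pair the arrays. The difference of Dgcr8 KO minus Dicer KO in Anxa1 lay between -2.13 and -2.02 over 16 alternatives. By SAM, 2542 transcripts were called higher and 2232 lower in Dgcr8 KO, where limma called 3612 higher and 3970 lower. The 1.5-fold minimum left 1268 transcripts higher and 815 lower in Dgcr8 KO, while Dicer KO had 1650 higher and 849 lower, where limma alone called 4087 and 4389.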
